A study of Mus musculus with 6 samples.

Results

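The gene-dense interval of chromosome 10 is the stretch chr10:79000000-81500000 of the mouse mm9 build, in which peaks of the co-activator YAP1 were unusually close together in every list of the study. Its regions were chosen by position: every called peak that touched these 2.5 Mb was taken from 4 peak lists, and peaks that overlapped by at least 1 bp were merged into 1 region. This gave 202 merged regions of 25223 in the whole study, and 1225 on chromosome 10. They were made from 435 of the 46539 peaks. The interval was selected on the number of peaks in it, so its density, and each property of its peaks set against the rest of the chromosome, is a description with no test.

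The study used tumours labelled MB, taken here as medulloblastoma, from mice of 1 genotype, fSMO-M2;hGFAPcre. These mice carry SmoM2, an always active form of the Hedgehog signal transducer Smoothened, which Cre switches on in neural progenitors and their descendants, driven by the promoter of human GFAP. Both groups carried the same alleles, and no tumour-free tissue and no tumour of another genotype served as a comparison. Chromatin of flash-frozen tumours was precipitated with an antibody against YAP1 and sequenced. The groups are SGf (female by title and description) and SGm (male), with 2 libraries each, numbered 1 and 2 in the titles. No age is given in the sources used, and none says that each library is a different animal. The spread between libraries, and with it each p-value, may therefore be technical. The tissue could not be checked against marker genes, because peak lists hold no expression values. The 2 pooled input libraries were not analysed here.

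The labels contradict each other for 2 of the 4 libraries. The Sex tag gives Female for SGm 1 and Male for SGf 2, while title and description of each agree on the opposite sex. Libraries of number 1 share 1 code in their descriptions, and those of number 2 share another, so the replicate number may mark libraries handled together. By the Sex tag both libraries of number 1 are Female and both of number 2 are Male. Replicate number and tagged sex are therefore the same split of the libraries and cannot be told apart. The lists also differed in length: 16145 peaks for SGf 1, 16769 for SGf 2, 4155 for SGm 1 and 9470 for SGm 2. The read depth behind them is unknown, and a longer list can reflect deeper sequencing or a better precipitation as well as more binding, which cannot be told apart here.

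YAP1 is a co-activator of transcription that the kinases of the Hippo pathway hold in check. It has no DNA-binding domain of its own and is known to reach chromatin through partners, chiefly the TEAD factors, at enhancers and promoters. In medulloblastoma driven by Hedgehog signalling it is known as a factor of proliferating granule neuron precursors. From general knowledge of the mouse genome, the interval holds one of the densest blocks of genes on its chromosome. In the RefSeq table of a later build, GRCm38.p6, the run of genes from Bsg to Sirt6 counts 114 of the 1001 protein-coding genes of chromosome 10, or 11.4%. The run includes Stk11 (the tumour suppressor kinase LKB1), Gpx4 (an enzyme that removes lipid peroxides), Tcf3 (which encodes some of the E proteins), Dot1l (a histone methyltransferase), Map2k2 (the kinase MEK2) and Eef2 (a translation elongation factor). Vomeronasal receptor genes precede it and zinc finger genes follow it. No coordinates were carried between builds, so regions below are given by position and none is assigned to a gene. The authors' lists hold no sequence, and none is printed.

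Every library had many peaks in the interval. The numbers were 152 in SGf 1, 131 in SGf 2, 46 in SGm 1 and 106 in SGm 2. The SGf libraries had the higher numbers, and SGm 1 the lowest. Peak density was 60.8 peaks per Mb in SGf 1, 52.4 in SGf 2, 18.4 in SGm 1 and 42.4 in SGm 2. On the other 127 Mb of the chromosome it was 5.20, 5.36, 1.26 and 2.90 peaks per Mb in the same order. The interval was therefore 11.7 times as dense as the rest in SGf 1, 9.78 times in SGf 2, and 14.6 times in both SGm 1 and SGm 2. Called peaks covered 2.17% of the interval in SGf 1, 2.14% in SGf 2, 0.559% in SGm 1 and 1.66% in SGm 2. The covered share of the rest was 0.179%, 0.199%, 0.0346% and 0.0943%. Covered length was thus 10.7 to 17.6 times as high in the interval.

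Among merged regions, the interval held 80.8 per Mb. The 2.5 Mb directly to its left held 32 regions, or 12.8 per Mb, and the 2.5 Mb to its right held 37, or 14.8 per Mb. Of 52 windows of 2.5 Mb along chromosome 10, counted in the same way, the interval ranked 1; the others held 1 to 84 regions, with a median of 17.0. It also ranked 1 of 1021 such windows over the genome. The next densest, chr8:124000001-126500000, held 152 regions. Windows on the grid of the interval's own coordinates favour it, since its edges were set with the peaks known.

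The regions nearest to each edge were as follows. The last region outside on the left was chr10:78560129-78560428, held by SGm 2 alone at 2.82-fold enrichment and 440 kb from the edge. The first region inside was chr10:79001124-79001445, 1.12 kb from the edge, with a fold enrichment of 4.78 in SGf 2 and 4.29 in SGm 2. Fold enrichment is the authors' own value for each peak, a ratio to a background that no source describes, and it is compared here only as it stands in each list. The last region inside on the right was chr10:81459355-81460088, held by all 4 libraries and 39.9 kb from the edge. Only 10.4 kb beyond the edge, chr10:81510444-81511090 was held by 3 libraries, with 4.89-fold enrichment in SGf 1, 4.95-fold in SGf 2 and 4.53-fold in SGm 2. This region was left out by the position rule alone.

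**Figure D1:**
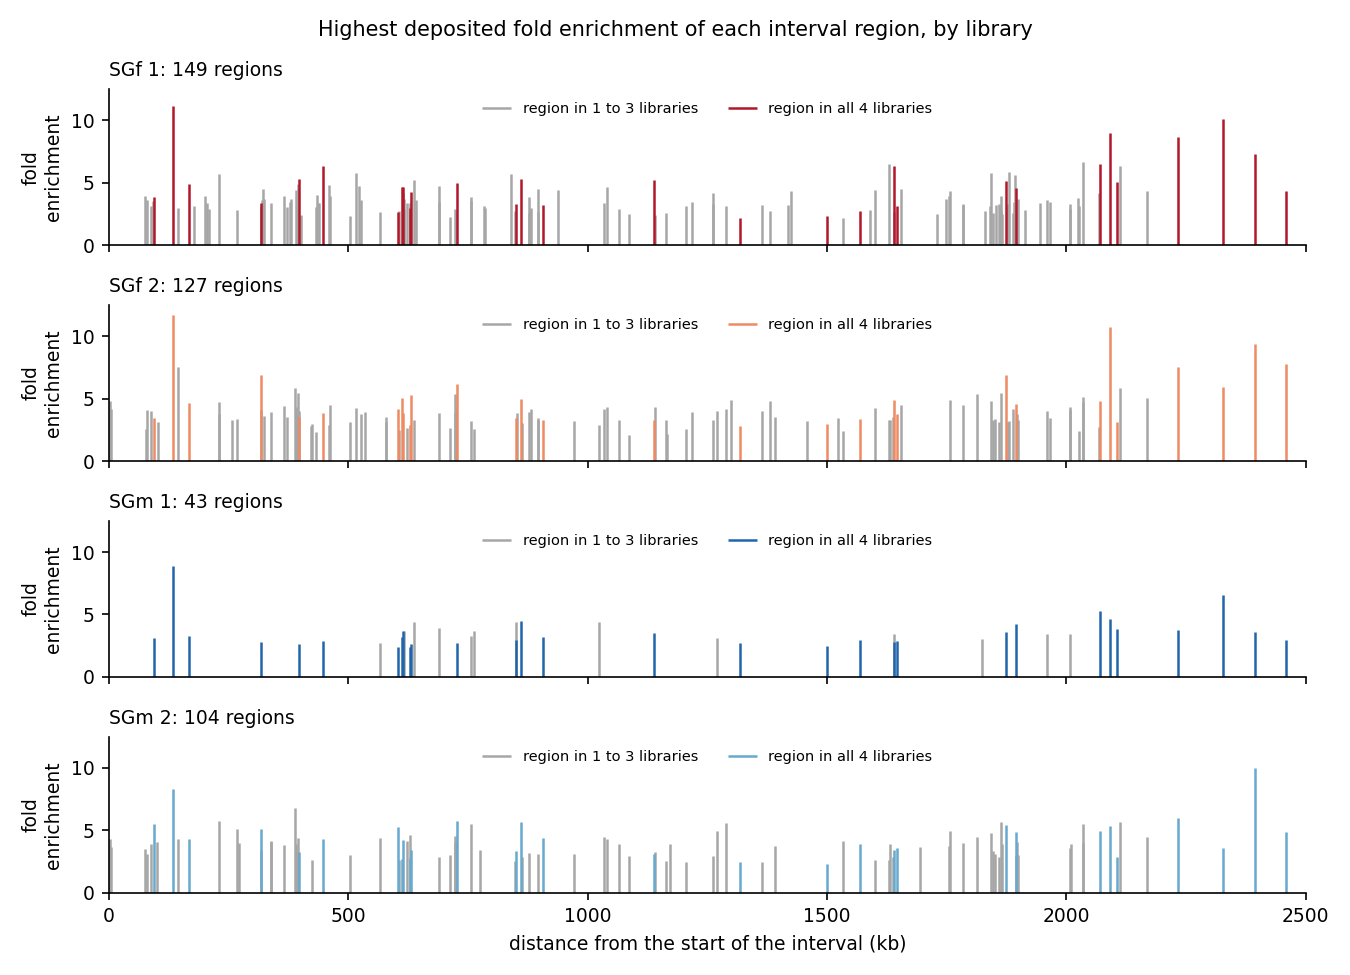
Interval regions of each library by distance from the interval's start in kb; the height of a line is the region's highest deposited fold enrichment in that library, and lines are coloured where all 4 libraries hold the region and grey elsewhere. SGf 1 has 149 lines, SGf 2 127, SGm 1 43 and SGm 2 104, and the right end has few grey lines.

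The regions were unevenly spread within the interval. In bins of 100 kb the count ran from 1 to 26 regions, with a median of 6 regions. The 8 bins with 10 or more regions held 120 of the 202 regions, or 59.4%. The fullest bin, chr10:80800001-80900000, held 26 regions, of which 2 were held by all 4 libraries and 13 by 1 library only. It was followed by chr10:79300001-79400000 with 19 regions and by chr10:79600001-79700000 with 16. The latter had 5 regions held by all 4 libraries, the highest number of the 25 bins. A full bin was thus not always one with many shared regions. The 8 full bins had 14.2% of their regions in all 4 libraries (95% exact Clopper-Pearson interval 8.47% to 21.7%), and the other 17 bins had 15.9% (8.72% to 25.6%). These intervals, like all those below, cover counting error only.

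The right end of the interval looked different, in a split made after its values were seen. The last 4 bins, from chr10:81100001 on, held only 7 regions, against 195 in the first 21 bins. Of these 7 regions, 5 were in all 4 libraries (71.4%, 29.0% to 96.3%) and the other 2 were in SGf 1, SGf 2 and SGm 2. In the first 21 bins 12.8% of regions were in all 4 libraries (8.47% to 18.3%), and 43.6% were in a single library. None of the 7 regions at the right end was in a single library.

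Of these right-end regions, 5 stood at nearly repeated distances, and they were picked after their spacing was seen. The step to the first of the 5 from the region before it was 55.8 kb, outside this spacing. The starts of the 5 were at 81167161, 81233481, 81326181, 81392874 and 81459355. The steps between them were 66.3, 92.7, 66.7 and 66.5 kb. Measured between summits, the first of these steps was 66.3 to 66.7 kb over the 3 libraries with both peaks. Over the 4 libraries the later steps were 92.6 to 92.9, 66.5 to 66.7 and 66.5 to 66.6 kb. Of the 4 steps, 3 lay within 1 kb of each other and the other was longer. Whether copies of 1 sequence lie at these places was not tested, because no genome of the mm9 build was at hand.

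**Figure D2:**
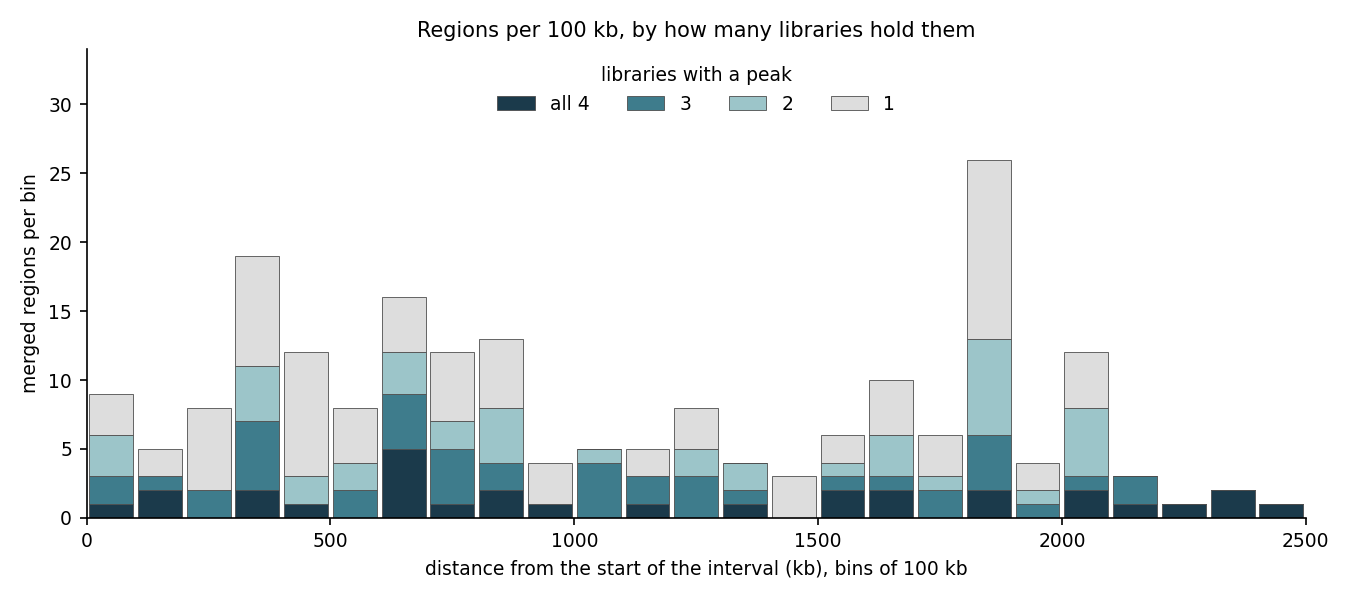
Merged regions per 100 kb, by distance from the interval's start in kb; the shades give how many of the 4 libraries hold the region. The bin that starts at 1800 kb holds 26 regions, of which 13 are in 1 library, while the last 4 bins hold 7 regions, of which 5 are in all 4.

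Neighbouring peaks of 1 library were a median of 6.90 kb apart in SGf 1, 9.71 kb in SGf 2, 45.6 kb in SGm 1 and 15.7 kb in SGm 2, from summit to summit. Outside the interval the medians were 60.7, 71.8, 299 and 123 kb. Summits closer than 1 kb to their neighbour made up 15.9%, 13.1%, 13.3% and 11.4% of the interval's spacings in SGf 1, SGf 2, SGm 1 and SGm 2. The same share outside was 10.7%, 7.78%, 6.29% and 5.98%. The longest stretch between summits of 1 library was 95.6 kb in SGf 1, 100 kb in SGf 2, 182 kb in SGm 1 and 109 kb in SGm 2. Merged regions lay a median of 5.34 kb from the one before. Of the 201 gaps between them 58 were shorter than 1 kb, 44 were longer than 20 kb and 9 were longer than 50 kb. The longest gap, 91.8 kb, preceded chr10:81326181-81326947 at the right end.

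Interval peaks were about as wide as those elsewhere on the chromosome in SGf 1, and somewhat wider in the other libraries. The median width was 280 bp in SGf 1, against 279 bp on the rest of the chromosome. It was 351 against 316 bp in SGf 2, 238 against 214 bp in SGm 1, and 324 against 270 bp in SGm 2. Peaks of 500 bp or more made up 19.1% of the interval's peaks in SGf 1, 30.5% in SGf 2, 8.70% in SGm 1 and 24.5% in SGm 2. Elsewhere on the chromosome they made up 16.0%, 19.3%, 7.45% and 13.0%. In every library the interval thus had the larger share of wide peaks, with only 4 such peaks in SGm 1.

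The typical peak was not higher there, while the strongest peak was. Median fold enrichment in the interval was 3.41 in SGf 1, 3.82 in SGf 2, 3.29 in SGm 1 and 3.92 in SGm 2. On the rest of the chromosome it was 3.66, 3.86, 3.77 and 3.80. Only in SGm 2 was the interval's median the higher one. The weakest interval peak had a fold enrichment of 2.18 in SGf 1, 2.09 in SGf 2, 2.29 in SGm 1 and 2.27 in SGm 2, and the strongest had 11.1, 11.7, 8.86 and 9.996. The strongest on the rest of the chromosome had 8.90, 9.37, 7.06 and 8.45, lower than the interval's in every library. The top 10% of the whole list by fold enrichment held 14.5%, 9.92%, 6.52% and 15.1% of the interval's peaks, against 11.2%, 9.96%, 11.2% and 8.92% elsewhere on the chromosome, so the interval's share was higher in SGf 1 and SGm 2 and lower in SGm 1.

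The strongest peaks of a list by p-value were somewhat more frequent in the interval in 3 libraries. The top 20% of the whole list by p-value held 24.3% of the interval's peaks in SGf 1, 26.7% in SGf 2 and 27.4% in SGm 2. On the rest of the chromosome it held 20.8%, 21.2% and 19.2%. SGm 1 went the other way, with 10.9% of its 46 interval peaks in the top 20% against 25.5% elsewhere. It also had the largest share of interval peaks under 3-fold enrichment, 37.0%, against 16.8% on the rest of the chromosome. This share was 27.0% against 19.3% in SGf 1, 14.5% against 18.0% in SGf 2 and 20.8% against 18.6% in SGm 2.

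**Figure D3:**
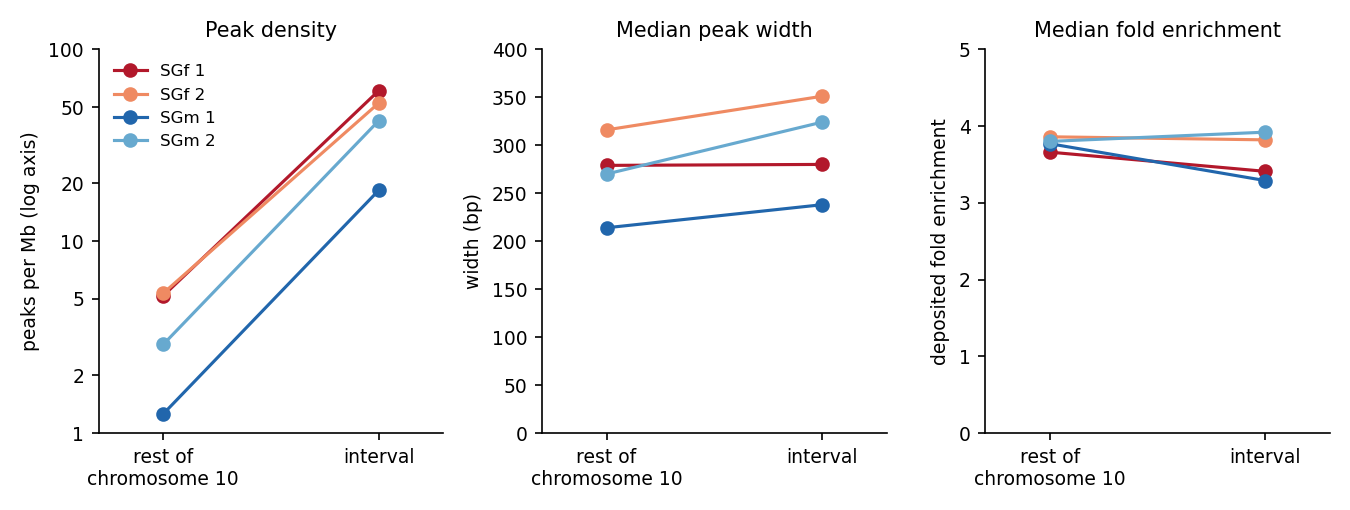
Rest of chromosome 10 (left points) and interval (right points) for each library, joined by a line: peaks per Mb on a log axis, median peak width in bp, and median deposited fold enrichment. Density is higher in the interval in all 4 libraries, whereas the medians of fold enrichment lie between 3.29 and 3.92 in both places.

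Sharing between the libraries was compared over merged regions, where a library holds a region if it has a peak in it. All 4 libraries held 30 of the 202 interval regions, or 14.9% (10.2% to 20.5%). On the rest of chromosome 10 they held 77 of 1023, or 7.53% (5.99% to 9.32%). Over the whole study they held 1990 of 25223, which is the background share of 7.89%. The interval's share was 1.97 times that of the rest of the chromosome. With peaks of a −log10 q-value of at least 5 only, it was 1.11 times, with 8 regions in all 4 libraries. The number of 30 depends on SGm 1, the shortest list: without that library 71 regions were held by all 3 others.

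A further 44 regions were in 3 libraries and 43 in 2. The most frequent pattern of 3 was SGf 1 with SGf 2 and SGm 2, the pattern of 41 regions (20.3%, against 14.4% on the rest of the chromosome). Regions in a single library numbered 85, or 42.1% (35.2% to 49.2%), against 52.9% (49.8% to 56.0%) elsewhere on the chromosome. Of these, 48 were in SGf 1, 21 in SGf 2, 5 in SGm 1 and 11 in SGm 2. The difference came mainly from SGf 2. Its lone regions made up 10.4% of interval regions (6.55% to 15.5%) and 23.0% of those on the rest of the chromosome (20.4% to 25.7%). The lone regions of SGf 1 made up 23.8% and 23.5%.

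Many lone regions lay next to others. Of the 85, 32 (37.6%) were within 500 bp of another merged region, against 21.8% of lone regions on the rest of the chromosome. For SGf 2 this held for 12 of 21, and for SGf 1 for 10 of 48. Over all interval regions, 75 (37.1%, 30.5% to 44.2%) had a neighbour within 500 bp, against 21.6% (19.1% to 24.3%) elsewhere. Where peaks are this dense, 2 lists can also overlap more often by their density, and how much of the sharing that accounts for was not tested.

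**Figure D4:**
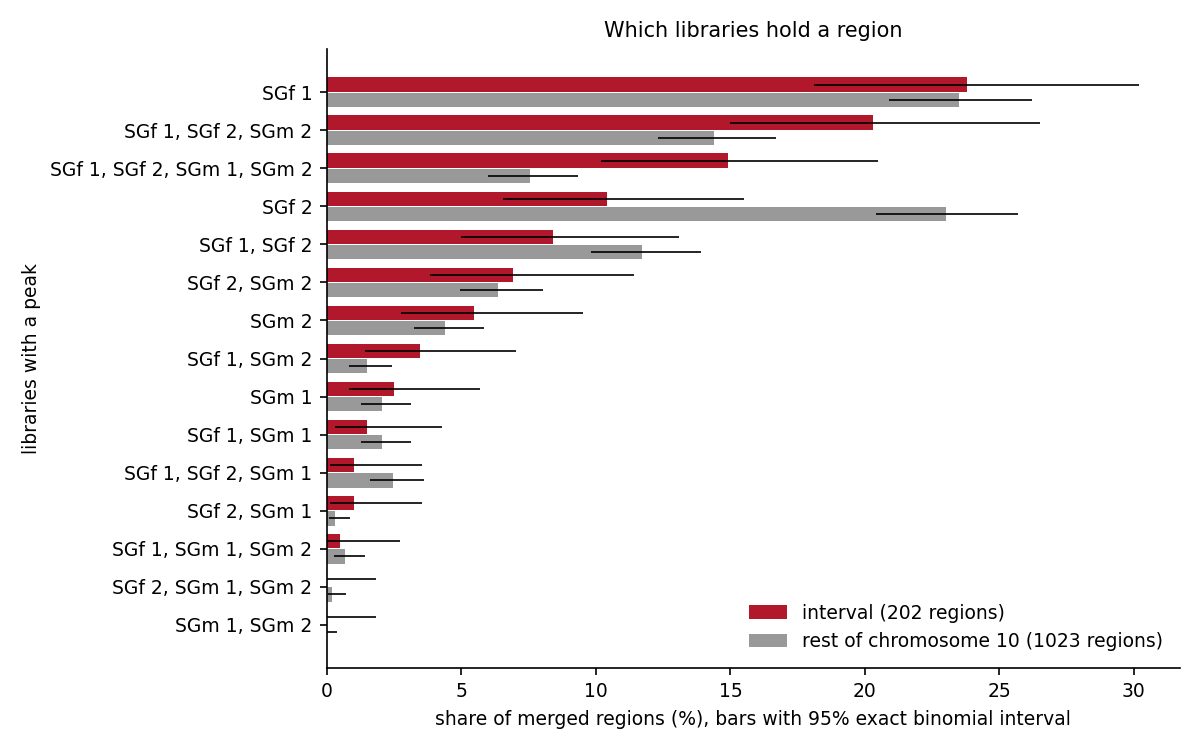
Share of merged regions, in percent, by the set of libraries that holds them, in the interval (202 regions) and on the rest of chromosome 10 (1023 regions); thin lines are 95% exact binomial intervals. The share held by all 4 libraries is 14.9% against 7.53%, and that held by SGf 2 alone is 10.4% against 23.0%.

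Regions were wider the more libraries held them. The median width was 222 bp for 1 library, 364 bp for 2, 534 bp for 3 and 750 bp for 4. On the rest of the chromosome the medians were 235, 384, 506 and 664 bp. All 7 interval regions of 1 kb or more were held by all 4 libraries, as were 10 of the 12 such regions on the rest of the chromosome. A merged region spans all its peaks, so its width is bound to grow as more peaks are joined. How much of the trend comes from the merging was not tested. Summits of the libraries lay close together within shared regions. In the 24 regions with exactly 1 peak in each of the 4 libraries, the median distance from the first to the last summit was 92.0 bp, with a range of 3 to 721 bp. In 67 such regions on the rest of the chromosome it was 122 bp. In regions of 3 libraries the order was the opposite, with 144 bp over 42 interval regions and 88.5 bp over 168 elsewhere.

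The strongest interval peaks were mostly shared ones, as were those elsewhere on the chromosome. Of the 10 peaks with the highest fold enrichment in the interval, all 4 libraries held 7 in SGf 1, 9 in SGf 2, 6 in SGm 1 and 5 in SGm 2. Of the 10 highest on the rest of the chromosome they held 9, 5, 6 and 8 in the same order, so the interval's number was higher in SGf 2 only and lower in SGf 1 and SGm 2. None of the interval's 10 was a lone peak in SGf 1, SGf 2 or SGm 2, and 1 was in SGm 1. Of the interval peaks in the strongest 20% of the SGf 1 list, by p-value, 20 of 37 (54.1%) were in all 4 libraries, against 37.0% on the rest of the chromosome. For SGf 2 it was 18 of 35 (51.4%) against 32.4%. For SGm 1 it was 5 of 5 against 73.2%. In SGm 2 the interval did not stand higher, with 17 of 29 (58.6%) against 60.6%.

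Over the 30 regions held by all 4 libraries, fold enrichment ran from 2.18 to 11.1 in SGf 1 (median 4.75), from 2.77 to 11.7 in SGf 2 (4.63), from 2.39 to 8.86 in SGm 1 (3.14) and from 2.27 to 9.996 in SGm 2 (4.30). SGm 1 gave the lowest value in 20 of the 30 regions and the highest in none. The highest value came from SGf 2 in 12 regions, from SGf 1 in 11 and from SGm 2 in 7. Both SGf values were above both SGm values in 9 regions, and both SGm values were above both SGf values in none. These counts were not made outside the interval. There, peaks in regions of chromosome 10 held by all 4 libraries had medians of 4.64 in SGf 1, 4.57 in SGf 2, 3.73 in SGm 1 and 4.34 in SGm 2. The order of the lists by median was thus the same in both places. The background behind each list's fold enrichment is not described, so these orders compare the lists as deposited and not the amount of bound YAP1.

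The ranking of these 30 regions was partly the same between libraries. As a description over regions, which are not replicates, Spearman's rho of fold enrichment was 0.64 between SGf 1 and SGf 2 and 0.44 between SGm 1 and SGm 2. It was 0.68 between SGf 1 and SGm 1 and 0.70 between SGf 2 and SGm 2, the pairs that share a replicate number and a description code. Pairs that share neither group nor number gave 0.44 (SGf 1 and SGm 2) and 0.42 (SGf 2 and SGm 1). The 77 shared regions on the rest of the chromosome gave 0.26 for the SGf pair, 0.27 for the SGm pair, 0.65 and 0.68 for the pairs of number 1 and number 2, and 0.17 and 0.27 for the others. The libraries of 1 number thus ranked regions more alike than those of 1 group did, though in the interval the SGf pair was close to them. Libraries of 1 number also carry the same Sex tag, so number and tagged sex cannot be told apart here. Whether libraries of 1 number also share a control library was not tested.

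The 10 shared regions named here are those whose lowest place in any of the 4 whole lists, ordered by fold enrichment, was the best. The first was chr10:79131617-79132578, 962 bp wide, with a fold enrichment of 11.1 in SGf 1, 11.7 in SGf 2, 8.86 in SGm 1 and 8.35 in SGm 2. It was the strongest interval peak of SGf 1, SGf 2 and SGm 1, and its rank in the whole lists was 34, 24, 15 and 57. In the other 9 regions the value of SGm 1 was between 2.71 and 5.29.

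Of these 9, several lay near the right end of the interval. At chr10:81089917-81090730 (814 bp) fold enrichment was 8.98 in SGf 1, 10.7 in SGf 2, 4.67 in SGm 1 and 5.33 in SGm 2, so that both SGf values were well above both SGm values. At chr10:81233481-81234413 (933 bp) it was 8.65, 7.55, 3.79 and 6.003 in the same order, again with the SGf values on top. At chr10:81392874-81393669 (796 bp) it was 7.27, 9.33, 3.63 and 9.996. This was the strongest interval peak of SGm 2 and rank 16 of its whole list, so the groups overlapped here.

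At chr10:81068738-81069747 (1010 bp) fold enrichment was 6.49 in SGf 1, 4.84 in SGf 2, 5.29 in SGm 1 and 4.93 in SGm 2. At chr10:80873997-80875507 it was 5.12, 6.87, 3.58 and 5.43. The latter is the widest region of the interval, 1511 bp made of 6 peaks, and it lies in the fullest bin. The groups overlapped in both regions. The same bin held chr10:80893713-80893993, the narrowest region in all 4 libraries at 281 bp. Its fold enrichment was 4.58, 4.59, 4.27 and 4.88, and its 4 summits lay within 3 bp.

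The remaining 3 of the 10 lay in the left part of the interval or its middle. At chr10:79166916-79167773 (858 bp) fold enrichment was 4.86 in SGf 1, 4.66 in SGf 2, 3.30 in SGm 1 and 4.30 in SGm 2. At chr10:79727194-79727675 (482 bp) it was 4.95, 6.19, 2.71 and 5.73. At chr10:79861220-79861877 (658 bp) it was 5.30, 4.99, 4.47 and 5.66. SGm 1 was lowest in all 3, and SGm 2 was above both SGf libraries in the last.

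Regions can also be shared and variable. At chr10:81326181-81326947, a right-end region that was not among the 10 and is singled out after its values were seen, fold enrichment was 10.1 in SGf 1, 5.89 in SGf 2, 6.58 in SGm 1 and 3.62 in SGm 2. Here both libraries of number 1 were higher than their partners of number 2. The next widest regions after the one of 1511 bp were chr10:79316614-79318044 (1431 bp) and chr10:79447135-79448486 (1352 bp). The former had a fold enrichment of 3.35 in SGf 1, 6.91 in SGf 2, 2.80 in SGm 1 and 5.13 in SGm 2, and the latter had 6.32, 3.87, 2.91 and 4.30. In the former the libraries of number 2 were the higher ones, and in the latter SGf 1 was.

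**Figure D5:**
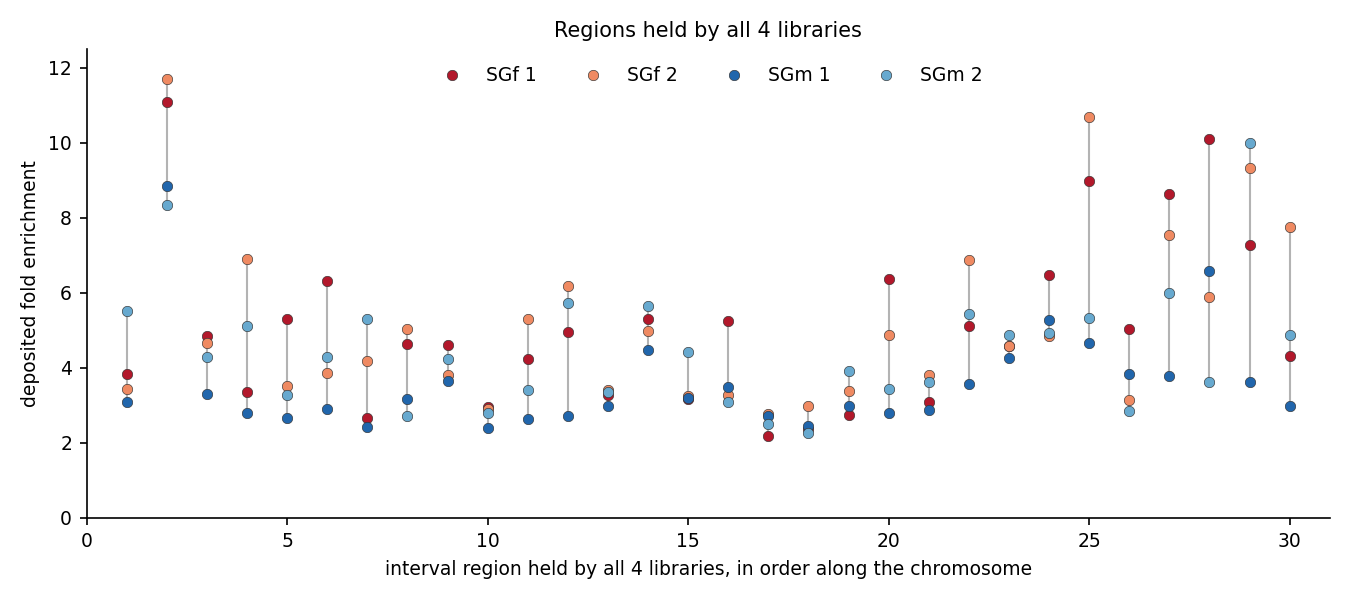
Deposited fold enrichment of the 30 interval regions held by all 4 libraries, in order along the chromosome; each point is a library and each grey line joins the 4 values of a region. SGm 1 is the lowest point in 20 regions, and the region with the highest values in SGf 1, SGf 2 and SGm 1 is the second from the left.

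The study's title asks about sex differences, and the groups were compared over the libraries. The SGf libraries had 142 ± 14.8 interval peaks (SD, n = 2) and the SGm libraries 76.0 ± 42.4 (SD, n = 2). The ratio of geometric means was 2.02, with a two-sided exact permutation p = 0.33, which is the smallest that 2 against 2 libraries allow. Within number 1 the ratio was 3.30 and within number 2 it was 1.24. On the rest of chromosome 10 the same ratio was 2.76, with 4.12 and 1.85 within the numbers. The interval's ratio was 1.33 without SGm 1, 3.07 without SGm 2 and 3.15 with a −log10 q-value of at least 5. With all lists cut to the same length by p-value it turned to 0.862, and with groups from the Sex tag to 0.710.

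Relative to the length of each list on the chromosome, the interval weighed more in the SGm libraries. It held 18.7% of the chromosome 10 peaks in SGf 1 (16.0% to 21.5%), 16.1% in SGf 2 (13.6% to 18.8%), 22.2% in SGm 1 (16.8% to 28.5%) and 22.3% in SGm 2 (18.6% to 26.3%). The groups did not overlap, although the intervals of single libraries did. The mean share was 17.4% ± 1.81 in SGf and 22.2% ± 0.0330 in SGm (SD, n = 2 each). The ratio of SGf to SGm was 0.779 (two-sided exact permutation p = 0.33, the smallest possible), and within number 1 and number 2 it was 0.839 and 0.723. It turned to 1.08 with groups from the Sex tag.

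This direction was a frequent one. Of 102 windows of 2.5 Mb with at least 10 peaks in each list, 39 (38.2%) had both SGm shares above both SGf shares, and 1 had the reverse. A ratio of SGm to SGf at least as large as the interval's 1.28 was found in 30 of these 102 windows, whose median was 1.18. With a −log10 q-value of at least 5 the interval's shares were 17.4%, 19.1%, 15.4% and 22.6% in SGf 1, SGf 2, SGm 1 and SGm 2, and the groups overlapped. With lists of equal length by p-value the shares were 20.8%, 18.5%, 22.2% and 24.1%, and the groups again did not overlap.

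Interval peaks of the SGf libraries were found again in SGm 2 more often than peaks elsewhere were. Of the SGf 2 peaks, 65.6% in the interval overlapped an SGm 2 peak (56.9% to 73.7%), against 43.6% on the rest of the chromosome (39.9% to 47.4%). Of the SGf 1 peaks it was 52.0% (43.7% to 60.1%) against 37.4% (33.7% to 41.2%). Between the SGf libraries, 71.0% of the interval's SGf 2 peaks overlapped SGf 1 (62.4% to 78.6%), against 55.1% elsewhere, while SGf 1 peaks overlapped SGf 2 in 60.5% and 57.2%. Of the SGm 2 peaks, 80 of 106 in the interval (75.5%) overlapped SGf 1, against 248 of 370 elsewhere. The other overlaps of SGm peaks with SGf lists differed less. SGm 1 peaks overlapped SGf 1 in 84.8% of cases in the interval and 82.0% elsewhere, and SGf 2 in 69.6% and 67.1%, and SGm 2 peaks overlapped SGf 2 in 80.2% and 81.4%. Between the SGm libraries, SGm 1 peaks overlapped SGm 2 in 69.6% and 53.4%, and SGm 2 peaks overlapped SGm 1 in 28.3% and 22.7%. SGm 1 was overlapped by 24.3% and 19.5% of SGf 1 peaks, and by 24.4% and 15.7% of SGf 2 peaks.

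Libraries of 1 group only held 102 of the 202 interval regions (50.5%), 86 of them with SGf peaks and 16 with SGm peaks, and 85 of the 102 were the lone regions above. The share was 64.6% on the rest of the chromosome and over all merged regions 63.9%. Regions in both libraries of a group and in neither of the other were fewer. Both SGf libraries and neither SGm library held 17 regions, or 8.42% of the 202, against 120 (11.7%) on the rest of the chromosome and a background of 11.1% over all merged regions. Of the 90 interval regions in both SGf libraries, these 17 were 18.9% (11.4% to 28.5%). On the rest of the chromosome the same share was 32.5% (27.8% to 37.6%) and over the study 30.8%. Both SGm libraries and neither SGf library held 0 interval regions, which allows a share of up to 1.49%. The background of that pattern is 0.0912%, so 202 regions are too few to show it. Of the 31 interval regions in both SGm libraries, 30 were in all 4 libraries.

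These counts changed with the length of the lists. With each list shortened to the same number of peaks by p-value or by fold enrichment, 0 regions were left in the pattern of the SGf pair, and 3 and 4 regions were in that of the SGm pair. With a −log10 q-value of at least 5 the counts were 18 and 0. Leaving out SGf 1 or SGf 2 raised the count of the SGf pair to 40 or 68, as fewer libraries then define it, and leaving out SGm 2 raised it to 58. Groups from the Sex tag are the libraries of number 1 and those of number 2, so both splits give the same counts. Libraries of number 2 alone, SGf 2 and SGm 2, held 14 regions (6.93%, against 6.41% over all merged regions). Those of number 1 alone, SGf 1 and SGm 1, held 3 (1.49%, against 2.01%), the count that corresponds to the SGf pair.

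By their medians, the SGf-pair regions were lower and narrower than those in all 4 libraries, as were the regions of number 2 alone. The SGf-pair medians of fold enrichment lay near those of all interval peaks, 3.41 in SGf 1 and 3.82 in SGf 2. The 14 regions of number 2 alone had a median width of 396 bp and median fold enrichments of 3.87 in SGf 2 and 3.94 in SGm 2. The median width of the SGf-pair regions was 385 bp. Their fold enrichment ran from 2.60 to 5.88 in SGf 1 (median 3.60) and from 2.44 to 4.78 in SGf 2 (3.91). The 5 whose lower place in the SGf lists was the best are named. These were chr10:79389361-79389979, with a fold enrichment of 4.41 in SGf 1 and 4.30 in SGf 2, and chr10:80599344-80599869, with 4.42 and 4.23 and both summits at the same base. A region held by SGm 2 alone lay 404 bp beyond the former and another 209 bp beyond the latter. The others were chr10:79516067-79517044 (978 bp; 5.75 and 4.22), chr10:79460506-79460890 (3.96 and 4.51) and chr10:79525890-79526198 (3.60 and 3.75). With lists of equal length by p-value or by fold enrichment, 0 of the 5 stayed in the pattern. All 5 stayed with a −log10 q-value of at least 5, but that limit only removes peaks and could add no SGm peak. With peaks up to 300 bp apart chained 4 stayed, and 3 did so when peaks had to overlap by 50% of both.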

How the data were processed

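YAP1 ChIP-seq peak lists of 4 libraries were used, each called on 1 library. The submitters' processing notes name BWA, HOMER 4.11 and mm9 without saying what each was for. Peak caller, threshold and control: not given in the sources used here. For each peak the authors deposited its position, a fold enrichment (ratio), −log10 p-value, −log10 q-value, score and summit offset. Lists hold no read counts, so depth is unknown.

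Overlapping peaks were chained into merged regions in Python 3.11.15 (pandas 2.3.3, numpy 2.4.6, scipy 1.17.1). Shares have 95% exact Clopper-Pearson intervals. For a count of 0, the share that 3 counts would make is the limit. Groups came from titles and were compared with two-sided exact permutation tests of mean log2 values over 6 splits. The replicate number was tried as a block, on the strength of the code the descriptions share. It splits the libraries as the Sex tag does, so the block and the Sex tag are not independent alternatives. Deviations between libraries could not be correlated without counts. Merging was tested on simulated lists whose sites lay farther apart than many interval regions do, so the test did not cover close neighbours. Named regions were the 10 in all 4 libraries and the 5 of each group's pair whose lowest place in the lists by fold enrichment was the best, the 3 widest, the 3 fullest bins and those next to the edges. The interval, its regions and these rules were chosen with earlier results of these data known. Alternatives were a −log10 q-value of at least 5, equal list lengths, other overlap rules, chromosomes 1 to 19 as the rest, each library left out, the Sex tag and the block. Equal length by fold enrichment and peaks up to 300 bp apart chained were added after seeing the data.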

Additional observations from a re-analysis of the deposited data

How the results depend on the processing

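Values for interval against rest are mean log2 ratios over the libraries. Density, 3.64 as reported, was 3.31 against all of chromosomes 1 to 19. Width, 0.14, was 0.28 and 0.38 with lists of equal length by p-value and by fold enrichment. Spacing, -2.93, was -2.74 at a −log10 q-value of at least 5, -3.13 at equal length by p-value and -2.34 against chromosomes 1 to 19. The ratio of shares in all 4 libraries, 0.98, was 0.15 at the higher q-value limit, and 0.67 to 0.82 with each library left out.

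Between groups, the log2 ratio of peak number, 1.01, turned to -0.21 with lists of equal length by p-value, to -0.34 by fold enrichment, and to -0.49 with the Sex tag. The log2 ratio of shares, -0.36, turned to 0.10 with the Sex tag. With the replicate number as a block the ratios were 1.01 and -0.36 and the exact sign-flip test gave p = 0.5, its minimum with 2 pairs. Both designs are too small to make a call, with or without the block. Each library left out gave 0.41 to 1.62 and -0.47 to -0.25.

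Regions in all 4 libraries, 30, numbered 8 at the higher q-value limit, 17 and 11 with the lists of equal length, and 28 to 71 with a library left out. Those of the SGf pair alone, 17, numbered 0 and 0 at equal length, 3 with the Sex tag and 19 to 68 with a library left out. Those of the SGm pair alone, 0, numbered 3 and 4 at equal length, 1 with an overlap of 50%, 14 with the Sex tag and 0 to 11 with a library left out. Height moved under no alternative tried. The unknown depth and 2 libraries a group limit every comparison, and the causes of these shifts were not tested.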
